A study of Mus musculus with 3 samples.

Results

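The genes described here encode the Rel subunits of the transcription factor NF-κB (*Nfkb1*, *Nfkb2*, *Rel*, *Rela* and *Relb*), the IκB family proteins IκBα (*Nfkbia*) and IκBζ (*Nfkbiz*), and the ubiquitin-editing brake *Tnfaip3*. They were chosen as a list of 8 genes by name, out of 21755 protein-coding genes annotated on chromosomes 1 to 19 and X, and for each the gene body plus 30 kb on either side was read in bins of 500 bp. The cells were long-term hematopoietic stem cells (HSCs) from the bone marrow of wild-type C57BL/6J female mice aged 8 weeks, enriched with c-Kit beads and sorted as LSK CD150+CD48−CD34−. They were processed by DOGMA-seq, which reads open chromatin (ATAC), RNA and antibody tags from the same cells. There was 1 preparation with 1 ATAC library, from a number of mice not given in the sources used here. It has no second group, so no value has a replicate and no test was made. All intervals are exact 95% intervals, binomial for shares of cells or fragments and Poisson for fragment counts, and they cover counting error only.

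NF-κB is held ready in the cytoplasm of resting cells by IκB proteins, which mask the nuclear localization signal of the Rel dimers. Inflammatory cytokines and microbial products activate the IκB kinase complex, the IκB is degraded, the dimers enter the nucleus, and among the genes they induce are those of their own brakes, *Nfkbia* and *Tnfaip3*. In a slower noncanonical arm, the NF-κB-inducing kinase (*Map3k14*) leads to processing of the *Nfkb2* product, which pairs with RelB. In HSCs the pathway is known for its part in responses to inflammation and in the balance between quiescence and activation.

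Of 605049 barcodes, 3757 were called as cells by the authors' pipeline and 3108 of these (82.7%) had more than 3000 fragments in peaks and were used. The lowest such cell had 3003 and the highest called cell left out had 2990. The cells used held 37137164 fragments on chromosomes 1 to 19 and X, with a median of 11457 fragments and 3860.5 RNA UMIs per cell, and each of the 3108 barcodes was shared by the ATAC and the RNA library. A fragment was placed at its midpoint. A bin was called open when it was among the top 1% of all 5267565 bins, which meant at least 106 fragments against a median of 1 fragment. Fragments near a start were counted in whole bins that reach within 1000 bp of it, and a bin near starts of both a listed gene and another gene was counted with the listed gene.

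Promoters of all 8 genes were open, that is, an open bin overlapped the 500 bp on either side of the start of the principal transcript, as was the case for 55.4% of all protein-coding promoters. The share of cells with at least 1 promoter fragment ran from 9.94% at *Nfkbiz* to 50.5% at *Tnfaip3*, with a median of 35.2% over the 8 genes beside 6.31% over all protein-coding genes. A fragment is drawn from at most a few copies of a site, so a cell without one cannot be read as a cell with closed chromatin. The order from the top was *Tnfaip3*, *Rel*, *Relb*, *Nfkb2*, *Rela*, *Nfkbia*, *Nfkb1* and *Nfkbiz*. In that order *Rel* and *Relb* had overlapping intervals, as did *Nfkb2*, *Rela* and *Nfkbia*, whereas *Tnfaip3*, *Nfkb1* and *Nfkbiz* each stood apart from their neighbors by more than counting error.

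**Figure D1:**
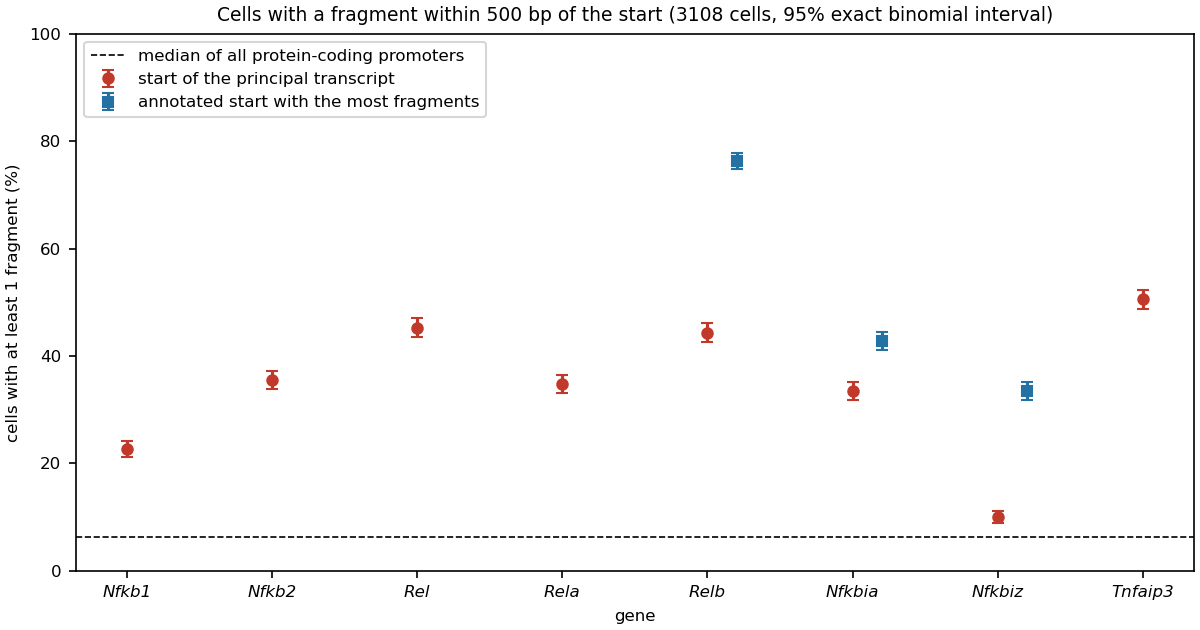
Share of the 3108 cells (vertical axis, %) with at least 1 ATAC fragment within 500 bp of a start of each gene (horizontal axis). Circles are the starts of principal transcripts, squares the annotated start with the most fragments where it differs clearly (*Relb*, *Nfkbia* and *Nfkbiz*), bars exact 95% binomial intervals, and the dashed line the median of all protein-coding promoters at 6.31%; *Nfkbiz* lies at 9.94% at its principal start and at 33.4% at its internal one.

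*Rel*, *Rela* and *Relb* encode the subunits that carry a transactivation domain. *Rel* (ENSMUSG00000020275.9, chr11:23736847-23770970, minus strand) encodes c-Rel, which is best known from lymphocytes. Its promoter held 2226 fragments in 1406 cells, a share of 45.2% (43.5 to 47.0%) and the 92.7th percentile of protein-coding promoters. The fragments peaked 101 to 200 bp upstream of the start, and the strongest bin, chr11:23771001-23771500, held 1440 fragments outside any annotated gene. Little lay beyond the start of *Rel*: 78.9% of the 3365 fragments of its window lay in bins within 1000 bp of its start and its window had 0 distal open sites. The highest bin away from all starts, chr11:23782001-23782500, held 54 fragments.

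*Rela* encodes p65, the main activating partner of the canonical dimer, and lies at chr19:5637483-5648130 on the plus strand (ENSMUSG00000024927.8). Its promoter held 1608 fragments in 1081 cells, a share of 34.8% (33.1 to 36.5%) and the 86.7th percentile. The window is crowded, and 51.7% of its 7981 fragments lay in bins within 1000 bp of the starts of other genes, among them *Kat5*, *Sipa1* and *Pcnx3*, against 24.4% near the starts of *Rela*. Distal open sites numbered 2. The stronger, chr19:5648501-5649500, began just past the end of *Rela*, 11.5 kb downstream of its start and between genes. It had 620 fragments in 15.9% of cells (14.6 to 17.2%), the highest share of any distal site of the 8 windows. This site is 2 bins long, with at most 339 fragments in a bin, fewer than the 509 of a 1-bin site at *Nfkb2*. The interval of that *Nfkb2* site (13.1 to 15.6% of cells) overlaps. The other, chr19:5613001-5613500, lay 24.2 kb upstream and nearest to the start of *Kat5*, with 203 fragments in 5.73% of cells.

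*Relb* encodes the activating partner of the noncanonical dimer (ENSMUSG00000002983.17, chr7:19606217-19629438, minus strand). Around its principal start were 2085 fragments in 1379 cells, a share of 44.4% (42.6 to 46.1%) and the 91.5th percentile. That start was not where the locus was most open. The bin chr7:19628501-19629000, in intron 1 and centered 688 bp downstream of the start, held 4116 fragments in 2134 cells (68.7%, 67.0 to 70.3%), and just 60 of the 5267565 bins of the genome reached that count. In steps of 100 bp the fragments peaked at 600 to 699 bp downstream, with 993 fragments. The annotated start of a noncoding transcript, Relb-204, lies 654 bp downstream, and the window around it held 5356 fragments in 76.4% of cells (74.8 to 77.9%). The *Relb* window had 2 distal open sites, one in intron 4 of the gene at chr7:19619001-19619500 (256 fragments, 7.43% of cells) and one over exon sequence of the neighbor *Clasrp* at chr7:19590001-19590500 (179 fragments, 5.44% of cells).

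The remaining subunit genes encode precursors, whose amino-terminal parts become DNA-binding subunits and whose carboxy-terminal parts act like an IκB. *Nfkb1* (ENSMUSG00000028163.17, chr3:135584655-135691547, minus strand) is the longest of the 8 genes, at 106893 bp, and had the least covered promoter of the subunit genes. Its promoter held 926 fragments in 705 cells, a share of 22.7% (21.2 to 24.2%) and the 74.7th percentile. Of the 5017 fragments of its 167.5 kb window 40.0% lay near its own annotated starts and 50.2% lay in bins that were neither open nor near a start, and the same remainder held 19.9% in the shorter *Rel* window of 94.5 kb. Bins above the threshold near internal starts of *Nfkb1* were chr3:135602501-135603000 in intron 16 (187 fragments), near the start of noncoding transcripts, and chr3:135608001-135608500 (176 fragments), which overlaps coding exon 13 and the annotated start of Nfkb1-203. Distal open sites were found at chr3:135581501-135582500, between genes 109.5 kb downstream of the start and past the end of the gene (226 fragments, 6.50% of cells), in intron 6 at chr3:135636001-135636500 (114 fragments, 3.44% of cells) and in intron 17 at chr3:135597001-135597500 (110 fragments, 3.25% of cells). All 3 lay close to the threshold of 106 fragments per bin, the first with 118 and 108 in its bins.

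*Nfkb2* (ENSMUSG00000025225.15, chr19:46304320-46312385, plus strand), the precursor gene of the noncanonical arm, had 1623 fragments in 1106 cells at its promoter, a share of 35.6% (33.9 to 37.3%) and the 86.9th percentile. Fragments rose in a pair of peaks, one 101 to 200 bp upstream of the principal start and the other around the start of Nfkb2-202, 952 bp downstream, where 1026 fragments lay in 24.2% of cells (22.7 to 25.8%). The bin of the second peak, chr19:46305501-46306000, held 775 fragments. It overlaps part of exon 2 and holds no coding sequence of the principal transcript. A distal open site overlapped coding exons 13 and 14 at chr19:46309001-46309500, 4.51 kb downstream of the start, with 509 fragments in 14.4% of cells (13.1 to 15.6%). It was the one distal site of the 17 that overlapped an exon of its own gene. The other site of this window, chr19:46329501-46330500, lay in *Fbxl15* and also overlaps *Cuedc2*, with 391 fragments in 10.6% of cells. This site continues without a gap from open bins near a start of *Fbxl15*. Of the fragments of the window, 52.7% lay near starts of other genes and not near one of *Nfkb2*. Of the 4 open bins near starts of *Nfkb2*, 3 were also near a start of the gene *AC114539.1*, so their fragments cannot be assigned to either gene from position.

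**Figure D2:**
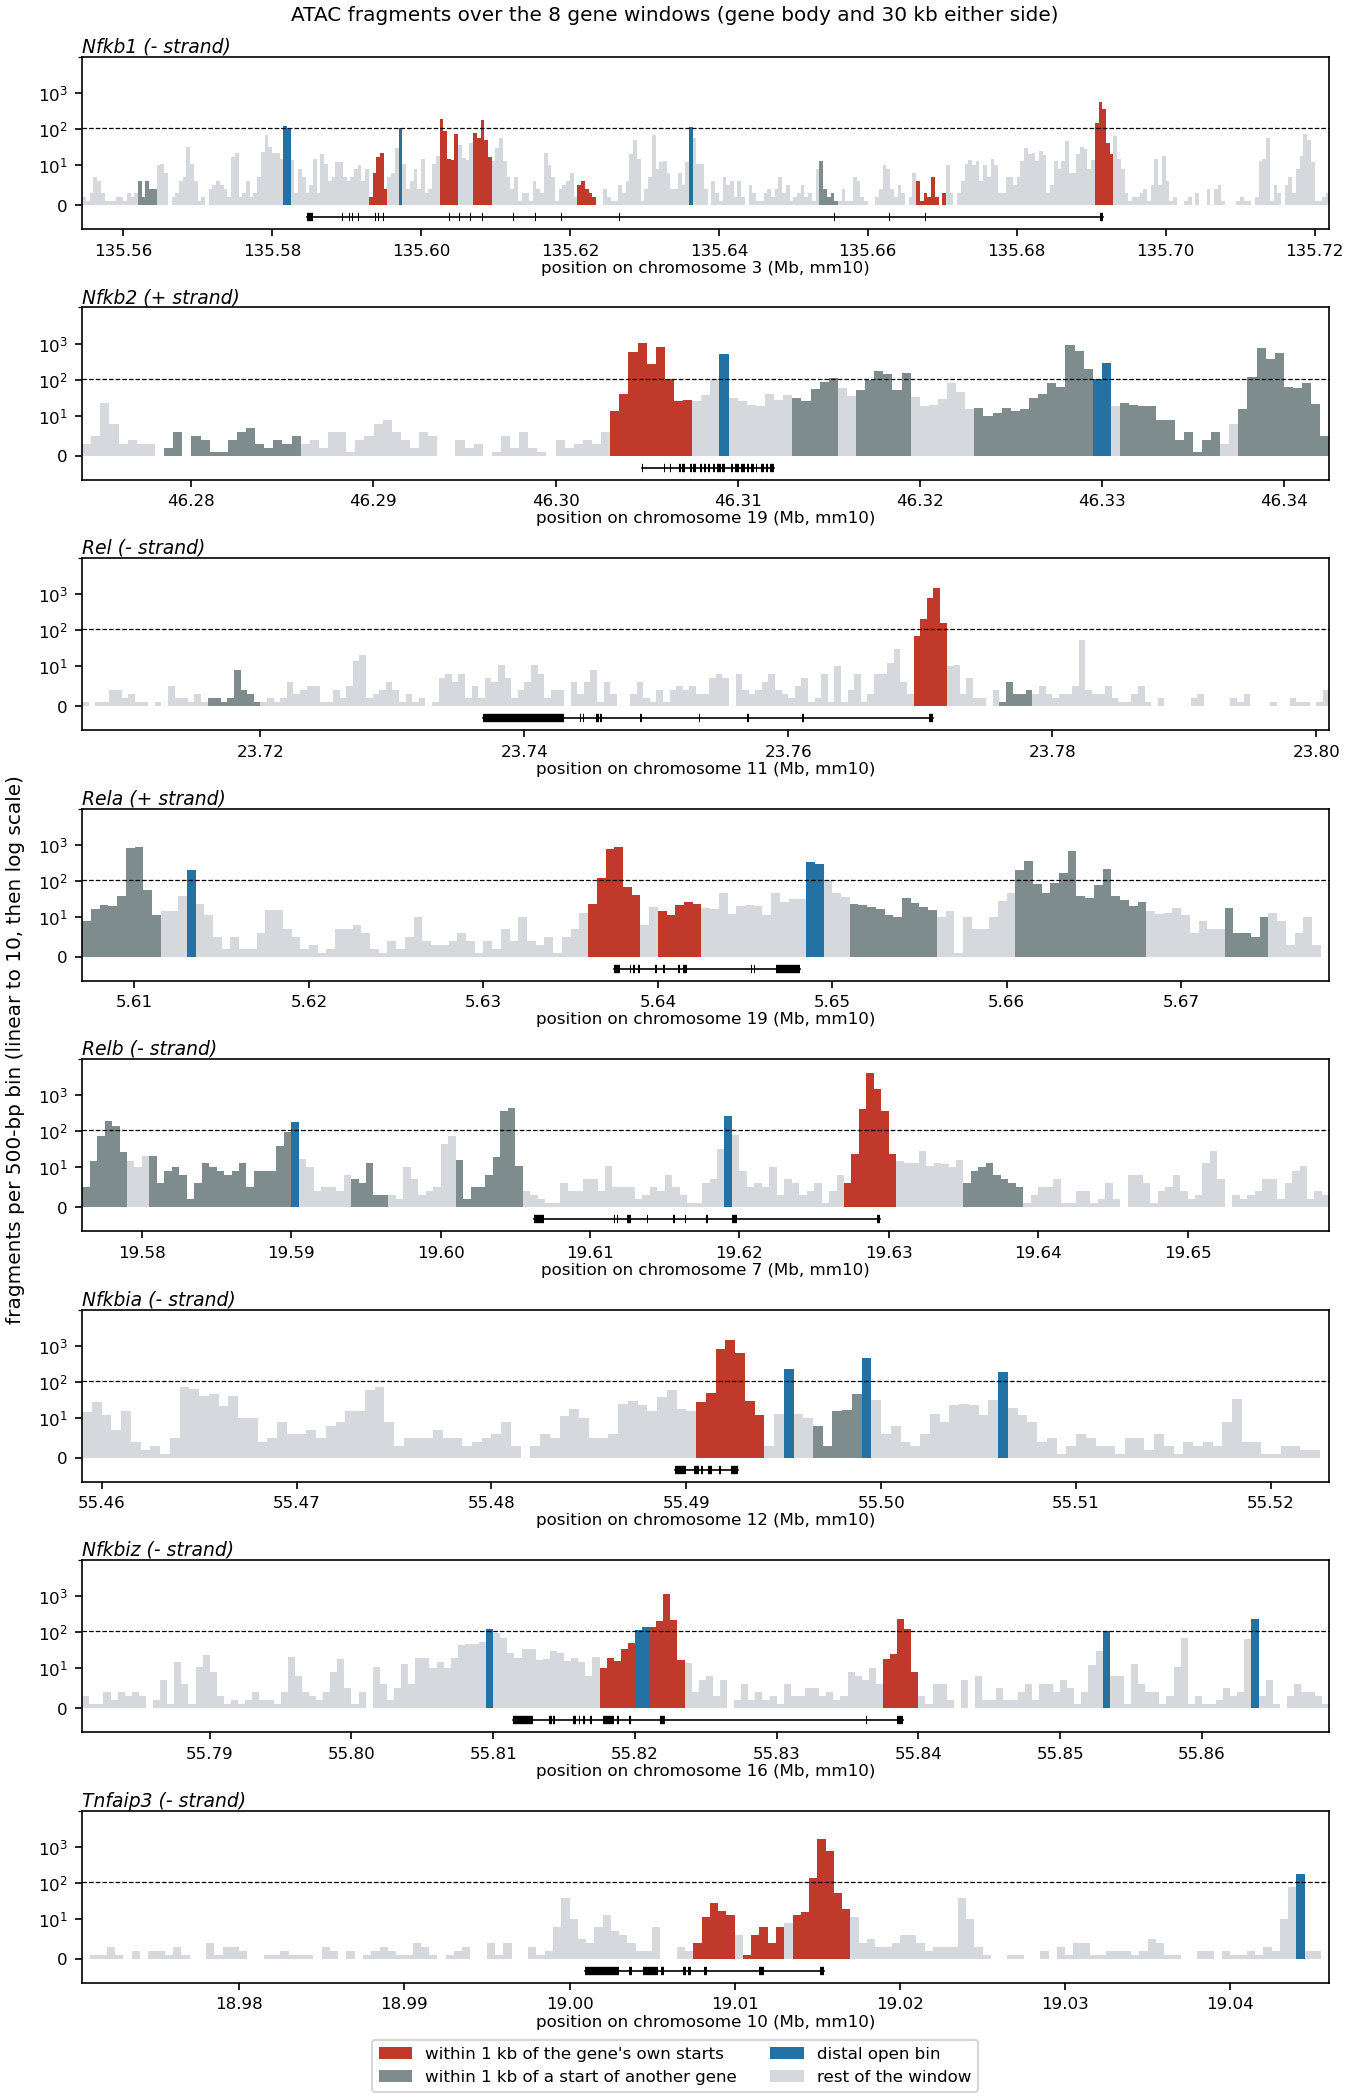
Fragments per 500-bp bin (vertical axis, linear to 10 and log scale above) along the 8 windows (horizontal axis, position in Mb, mm10), for the 3108 cells together. Red bins lie within 1000 bp of a start of the gene itself, dark grey bins within 1000 bp of a start of another gene, blue bins are distal open bins and light grey the rest; the dashed line is the threshold of 106 fragments, the black model the principal transcript, and distal open bins are absent at *Rel* and most frequent at *Nfkbiz*.

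Among the inhibitors, *Nfkbia* (ENSMUSG00000021025.8, chr12:55489410-55492647, minus strand) encodes IκBα, which is resynthesized on activation and ends the canonical response. It had 1413 promoter fragments in 1042 cells, a share of 33.5% (31.9 to 35.2%) and the 84.0th percentile. As at *Relb*, the peak lay within the gene, at 600 to 699 bp downstream of the start with 651 fragments per 100 bp. The strongest bin, chr12:55492001-55492500, overlaps coding exon 1 and held 1441 fragments in 35.0% of cells, and the bin that follows it, over coding exon 2, held 819. Fragments over the body without the promoter reached 594.4 per kb in this short gene, the 98.9th percentile of protein-coding genes. That count leaves out only the 500 bp after the start, so it includes the peak at 600 to 699 bp and is not a measure of the rest of the body. All 3 distal open sites lay upstream. The strongest, chr12:55499001-55499500, 6.60 kb upstream, overlaps an exon of the noncoding gene *Gm36634* and held 459 fragments in 13.0% of cells (11.8 to 14.2%). Between genes were chr12:55495001-55495500, 2.60 kb upstream (219 fragments, 6.66% of cells), and chr12:55506001-55506500, 13.6 kb upstream (192 fragments, 5.79% of cells).

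*Nfkbiz* encodes IκBζ, a nuclear and inducible member that modulates NF-κB at selected genes, and lies at chr16:55811375-55838899 on the minus strand (ENSMUSG00000035356.17). Its principal start had the lowest count of the 8, with 356 fragments in 309 cells, a share of 9.94% (8.91 to 11.0%) and the 56.8th percentile. The strongest opening of the locus was 16.8 kb inside the gene. The start of the coding transcript Nfkbiz-204, at position 55822138, had 1481 fragments in 1039 cells within 500 bp, a share of 33.4% (31.8 to 35.1%). Its strongest bin, chr16:55822001-55822500, overlaps coding exon 3 of the principal transcript and held 1139 fragments. At the main settings *Nfkbiz* also had the most distal open sites, 4, a rank that depends on the settings. In intron 3 was chr16:55820001-55821000 (253 fragments, 7.34% of cells, 6.44 to 8.31%), next to the internal start at a distance of 1138 bp. This site continues without a gap from the open bins near that start, and only the 1000 bp rule sets it apart. In the body of *Nxpe3*, 24.9 kb upstream of the principal start, was chr16:55863501-55864000 (230 fragments, 6.95% of cells), and between genes, past the end of *Nfkbiz*, was chr16:55809501-55810000 (125 fragments, 3.64% of cells).

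*Tnfaip3* encodes a protein that removes and rearranges ubiquitin chains on signaling adaptors and so shuts off NF-κB activation (ENSMUSG00000019850.11, chr10:19000910-19015657, minus strand). It had the most covered principal start of the 8, with 2432 fragments in 1571 cells, a share of 50.5% (48.8 to 52.3%) and the 94.0th percentile, ranking 1314th from the top. The peak was narrow, with 851 fragments in the 100 bp just upstream of the start. The internal start of Tnfaip3-202, 3447 bp downstream, had 12 fragments. Its window resembled that of *Rel*: 81.0% of 3386 fragments lay near its own starts and 1 distal open site was found, at chr10:19044001-19044500, 28.8 kb upstream and between genes, with 170 fragments in 4.86% of cells (4.13 to 5.67%).

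**Figure D3:**
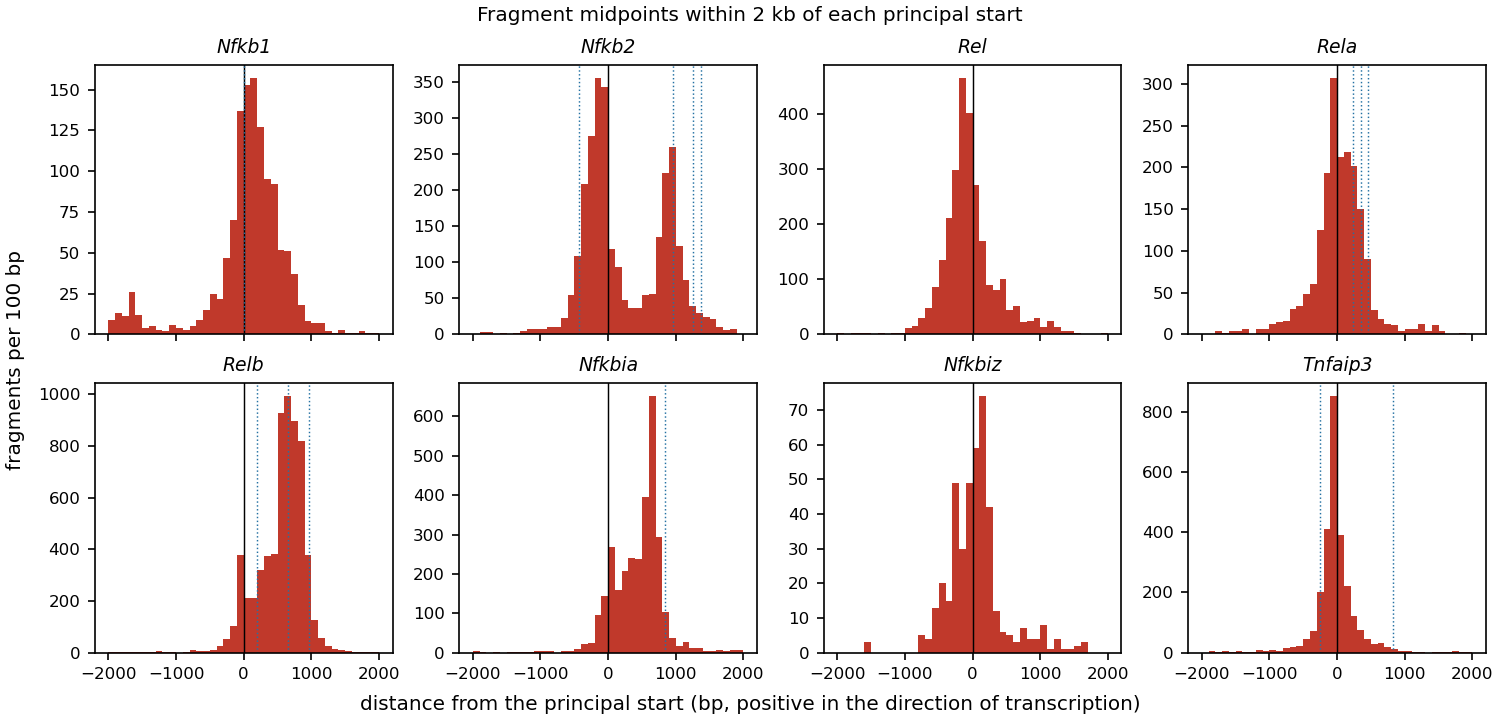
Fragment midpoints per 100 bp (vertical axis, a scale of its own for each gene) within 2000 bp of the principal start (horizontal axis, bp, positive in the direction of transcription). The black line marks the principal start and dotted lines other annotated starts; peaks of *Relb* and *Nfkbia* lie 600 to 699 bp downstream, those of *Rel* and *Nfkb2* 101 to 200 bp upstream.

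Over the 8 windows there were 17 distal open sites, which are runs of adjacent open bins more than 1000 bp from every annotated transcript start, and 7 windows held at least 1. They comprised 21 open bins among 1147 distal bins, or 1.83%, beside 0.433% of all distal bins of the genome. Windows of the 8 genes held a median of 2 sites and those of all protein-coding genes a median of 1, or 2.60 and 0.733 per 100 kb, and genes with an open promoter, as all 8 have, had a median of 1 and 1.27 per 100 kb. By rate at the main settings *Nfkbia* (4.69 per 100 kb) and *Nfkbiz* (4.55) led, at the 93.0th and 92.2nd percentile of protein-coding genes. *Rel* was at the 23.0th. Of the 17 sites, 5 lay in the gene itself, 5 in the body of another gene and 7 between genes, and a site in another gene cannot be assigned to the listed gene from position. The share of cells with a fragment ran from 3.25% to 15.9% with a median of 6.50%, and 13 of the 17 sites were 1 bin long. The number of sites depends on what is called open: there were 6 with the top 0.5% of bins and 36 with the top 2%. The order of the genes, by number and by rate, moved with the settings too. With the top 2% *Nfkb1* had 11 sites, *Nfkbia* 7 and *Nfkbiz* 5, and with the top 0.5% *Nfkb2* led with 2. With distal bins over 500 bp from starts *Nfkb1* and *Nfkb2* had 5 each and *Nfkbiz* 4. With all called cells *Nfkbiz* still had the most, 4.

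Short fragments, those with less DNA than is wrapped around a nucleosome core, were counted by place. They were 55.7% (55.1 to 56.3%) of the fragments in bins within 1000 bp of the genes' own starts and 55.6% (54.2 to 57.1%) of those in distal open bins, 43.4% (42.4 to 44.3%) of those near starts of other genes and 26.0% (25.1 to 26.9%) of those in the remaining bins, beside 45.6% of all fragments of the cells. Near starts the share was highest at *Relb*, 68.4% (67.2 to 69.5%), and lowest at *Nfkb1*, 41.3% (39.1 to 43.5%). In distal open bins it went from 46.5% (42.8 to 50.2%) at *Nfkbiz* to 81.8% (75.1 to 87.3%) at the single site of *Tnfaip3*. Distal open bins were chosen by their fragment count, so their share of short fragments is not independent of that choice.

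Of the 3108 cells, 145 had a fragment at none of the 8 promoters, 782 at 2, 771 at 3 and 31 at 7. No cell had one at all 8 (0 of 3108 cells, which allows a share of up to 0.0965%, a floor of 3 counts and not an exact interval). At *Tnfaip3* 944 cells had 1 fragment, 439 had 2 and 188 had more than 2, whereas at *Nfkbiz* 265 had 1 and 3 had more than 2. More than 2 fragments at a site can come from overlapping cuts of the same allele, from replicated DNA or from doublets, which were kept, and their part was not tested.

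The share of cells with a fragment at each of the 8 promoters rose with depth. In 3 groups of 1036 cells by ATAC fragments, with medians of 8119, 11457 and 14574.5, the *Tnfaip3* share was 39.7%, 52.7% and 59.3%, and the *Nfkb1* share 15.4%, 22.8% and 29.8%. Per 10000 fragments of the same cells the levels moved less. *Nfkb1* had 0.233 (0.201 to 0.269), 0.272 and 0.241 (0.219 to 0.266), which overlap. *Relb* went from 0.639 (0.585 to 0.697) in the shallowest group to 0.513 (0.480 to 0.548) in the deepest and *Tnfaip3* from 0.707 (0.650 to 0.767) to 0.606 (0.569 to 0.643), differences beyond counting error. In 3 groups by RNA UMIs, with medians of 2889, 3860.5 and 5154, *Tnfaip3* had 0.662, 0.681 and 0.628 and *Nfkbia* 0.403, 0.386 and 0.359 fragments per 10000, and the intervals of the lowest and the highest group overlapped for all 8 genes. Between the middle and the highest group *Nfkb2* had intervals that did not overlap, 0.483 (0.444 to 0.524) and 0.399 (0.367 to 0.433). Its lowest group had 0.439 (0.401 to 0.480). This pair, like those of *Relb* and *Tnfaip3* by depth, was named from among all genes and groups. No allowance was made for the number of pairs looked at. Barcodes that were not called cells held the same sites at lower levels: 0.383 (0.321 to 0.453) at *Tnfaip3* beside 0.655 (0.629 to 0.681) in the cells used, 0.255 beside 0.599 at *Rel*, and 0.0511 (0.0303 to 0.0807) beside 0.0959 (0.0862 to 0.106) at *Nfkbiz*.

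Sequences of the promoters were taken from RefSeq (GRCm38.p6), from 250 bases before to 50 after a start. Of the 8 genes 5 had an entry in the set of promoter windows used here, namely *Nfkb2*, *Rel*, *Rela*, *Nfkbia* and *Tnfaip3*. The set held none for *Nfkb1*, *Relb* and *Nfkbiz*, which says nothing about RefSeq itself. The κB consensus, the 10-base pattern that NF-κB dimers bind, was found on either strand in 4 of the 5, all but *Rela*, and in 8.46% of all 32851 promoter windows of this length. These 4 are shown because each holds the motif of the pathway itself, with κB matches in capitals and overlapping matches run together.
Nfkb2, chr19:46304487-46304786, plus strand: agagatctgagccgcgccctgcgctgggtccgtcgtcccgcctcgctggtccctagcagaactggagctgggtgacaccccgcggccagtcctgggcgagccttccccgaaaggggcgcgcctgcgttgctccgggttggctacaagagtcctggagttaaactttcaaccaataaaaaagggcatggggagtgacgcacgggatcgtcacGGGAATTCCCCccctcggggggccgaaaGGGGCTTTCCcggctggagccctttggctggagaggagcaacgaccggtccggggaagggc
Rel, chr11:23770920-23771219, minus strand: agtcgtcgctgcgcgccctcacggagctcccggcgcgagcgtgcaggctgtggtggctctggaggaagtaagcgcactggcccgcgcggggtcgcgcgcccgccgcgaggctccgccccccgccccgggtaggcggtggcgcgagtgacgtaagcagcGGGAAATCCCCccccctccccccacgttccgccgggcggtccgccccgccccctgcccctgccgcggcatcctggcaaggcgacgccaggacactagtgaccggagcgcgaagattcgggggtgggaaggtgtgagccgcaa
Nfkbia, chr12:55492598-55492897, minus strand: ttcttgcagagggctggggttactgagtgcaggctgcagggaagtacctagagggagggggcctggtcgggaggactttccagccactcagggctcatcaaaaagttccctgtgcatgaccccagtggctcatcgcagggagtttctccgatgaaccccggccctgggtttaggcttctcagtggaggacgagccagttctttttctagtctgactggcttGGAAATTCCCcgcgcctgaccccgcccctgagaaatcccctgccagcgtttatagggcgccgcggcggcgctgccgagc
Tnfaip3, chr10:19015361-19015660, minus strand: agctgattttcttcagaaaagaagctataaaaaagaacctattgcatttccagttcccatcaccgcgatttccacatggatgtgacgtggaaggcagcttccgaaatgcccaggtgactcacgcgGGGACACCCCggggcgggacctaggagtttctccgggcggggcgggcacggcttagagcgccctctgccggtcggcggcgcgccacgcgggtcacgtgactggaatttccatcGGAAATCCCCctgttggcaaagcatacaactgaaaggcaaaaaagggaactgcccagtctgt

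The matches began 39, 38 and 11 bases upstream of the RefSeq start in *Nfkb2*, 92 and 91 in *Rel*, 29 in *Nfkbia*, and 125 and 12 in *Tnfaip3*, counted from the first base of the start. *Nfkb2*, *Rel* and *Tnfaip3* hold overlapping or repeated matches, so their counts are not independent. All 5 windows were rich in GC, from 56.7% in *Tnfaip3* to 75.0% in *Rel*, beside a median of 52.7% over all windows, and *Rel* had 42 CpG dinucleotides against a median of 7. GGGCGG, the GC box bound by Sp factors, was present in 4 of the 5 windows, in *Rel* 5 times, and in 35.7% of all windows. TGACGT was found in *Rel* and *Tnfaip3* (7.51% of all windows), TGANTCA in *Tnfaip3* (7.81%), AGGAAG and TGTGGT in *Rel* (35.4% and 16.8%) and AGATAA in 0 of the 5 (11.2%). A match describes the letters of the reference and not occupancy by a factor.

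In the distal open bins of 500 bp, the κB consensus was present in 7 of 21 (33.3%) beside 11.9% of all 21141 distal open bins, and median GC was 48.8% and 50.0%. The bins with a match were 2 each at *Nfkbia* and *Nfkbiz* and 1 each at *Nfkb2*, *Rela* and *Relb*. Other motifs were nearer to the shares over all distal open bins: AGGAAG, the core bound by ETS factors, in 52.4% beside 60.0%, the RUNX core TGTGGT in 38.1% beside 38.6%, AGATAA, bound by GATA factors, in 4 of 21 beside 21.9%, GGGCGG in 4 of 21 beside 20.2%, TGANTCA in 9.52% beside 16.4% and TGACGT in 4.76% beside 7.23%. With 21 bins a single bin is worth almost 5 percentage points, and no test was made. Matches are shown with the bases around them for the genes with an entry in the promoter set used, which gives those at *Nfkb2*, *Rela* and *Nfkbia*.
Nfkb2 locus, chr19:46309018-46309047, plus strand: ggacgcccccGGAGGCTCCCcagggcgaac
Rela locus, chr19:5648936-5648965, plus strand: ctaagcggtgGGGAAACCCCtatgctgaga
Nfkbia locus, chr12:55495345-55495374, plus strand: ggccctccctGGGAATTCCCtaggagttac
Nfkbia locus, chr12:55506206-55506235, plus strand: ggagtttcttGGGGCCTTCCtttcttcctc

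Other genes of the pathway had promoters with a wide range. Their counts of open promoters are to be read beside the 55.4% of all protein-coding promoters that were open. The other family members *Nfkbib*, *Nfkbie*, *Nfkbid* and *Bcl3* were open in 4 of 4, with a median share of 18.7%, led by *Nfkbib* at 36.8% and *Nfkbie* at 19.6% and with *Nfkbid* at 17.8% and *Bcl3* at 7.75% last. Of 8 genes of the IκB kinase complex and other kinases, 7 were open (median 25.8%). Among the 7, *Ikbkg* had 62 promoter fragments and was open by a bin that reaches beyond the promoter window. *Map3k14*, the kinase that starts the noncanonical arm, led at 65.9% (64.2 to 67.6%), above the principal start of each of the 8 genes. It was below the 76.4% around the internal start of Relb-204. *Chuk* followed at 37.8%, and *Ikbke* (3.64%) and *Ikbkg* (1.83%) were lowest. Among 17 adaptors and ubiquitin ligases 15 were open (median 26.7%), with *Bcl10* at 62.4% and *Sharpin* at 57.5% at the top and *Birc2* at 0.418% at the bottom. Of the 7 other brakes 6 were open (median 34.2%), from *Cyld*, a deubiquitinase, at 50.5% and *Tax1bp1* at 39.7% down to *N4bp1* at 18.6% and *Tnip1* at 4.83%.

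A list of 18 textbook targets of NF-κB had a lower median than the other lists of the pathway. It leaves out the induced genes *Nfkbia* and *Tnfaip3* and shares no gene with the other lists. Its median therefore depends on how genes were divided among the lists. Of these 18 targets 11 were open, or 61.1%, near the 55.4% of all protein-coding promoters, with a median share of 4.84% beside 6.31%. *Bcl2l1*, an antiapoptotic gene, led at 55.3% and *Sod2* followed at 24.0%, while *Bcl2a1b* (0.290%) and the endothelial selectin gene *Sele* (0.161%) were lowest. The JAK, STAT and SOCS genes and the AP-1 genes, which belong to other inducible pathways, had medians of 35.5% and 40.4%, with 14 of 15 and 8 of 9 open, so the levels of the 8 NF-κB genes were shared by other signaling families. In the former *Stat3* (80.4%) and *Socs1* (58.6%) were highest and *Stat5a* (7.85%) and *Stat4* (0.193%) lowest, and in the latter *Jund* (80.0%) and *Jun* (57.3%) were highest and *Batf* (6.82%) and *Atf3* (0.386%) lowest.

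Marker promoters were read as a check of the sort. Counts of open marker promoters are to be read beside the 55.4% of all protein-coding promoters that were open. Of 10 HSC genes 8 were open, led by *Hlf* at 39.4% and *Mllt3* at 36.2%, and *Slamf1* (3.02%) and *Ly6a* (0.997%) were not open at the principal start. None of 9 monocyte, macrophage and neutrophil genes was open, with a median share of 1.16% and at most 3.02% (*Cd14*), and *Ly6g* had 1 fragment. None of 4 T cell genes and 4 B cell genes was open, with *Lck* (2.48%) and *Pax5* (1.67%) highest and *Cd3e* (0.0965%) and *Ms4a1* (0.193%) lowest. Of 5 stromal and endothelial genes 3 were open, near the share of all promoters, with a median share of cells of 1.54% and *Pecam1* highest at 6.69%. One of the 3, *Col1a1*, had 49 promoter fragments in 1.38% of cells and was open by a bin that reaches beyond the promoter window. All 4 megakaryocyte genes were open with a median of 19.2% and *Itga2b* highest at 23.6%. The part of any admixed cells in the values of the 8 genes was not tested.

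For each of the 8 genes the most similar protein-coding gene outside all lists was sought by Euclidean distance over 3 z scores, those of the log2 promoter fragments, the log2 fragments per kb of gene body without the promoter, and the distal open bins per 10 kb of window. *Ttc14* was the closest to *Tnfaip3*, with 2469 and 2432 promoter fragments and a distance of 0.0108, and *Ccna2* to *Rel*, with 2281 and 2226 and 0.0135. *Rabep2* came closest to *Nfkb1* (0.0364), *Pmm1* to *Rela* (0.0714), *Usp2* to *Nfkbiz* (0.0860), *Erf* to *Nfkb2* (0.0997) and *Mfsd11* to *Relb* (0.117). *Nfkbia* had the most distant nearest gene, *Rpl18*, at 0.146. The distances are over 1 library and describe amounts of open chromatin only.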

How the data were processed

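The authors mapped reads to mm10 with Cell Ranger ARC 2.0.2 (per the file headers), which collapses duplicate read pairs into fragments and calls cells. They deposited, as counts, the read pairs of each fragment and the fragments, peak fragments and RNA UMIs of each barcode; none was normalized. A shift of fragment ends for the transposase was not given in the sources used here. Fragments of 1 ATAC library were used; RNA UMIs served only to split cells, and RNA per gene and antibody tags were not analysed here. The 60494 of 42000180 fragments on other sequences were left out.

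Starts came from GENCODE M21, with 1 principal transcript per gene by APPRIS rank. No fragment or gene ended beyond its chromosome in GRCm38. Percentiles are by promoter fragments over 21755 genes, and likeness used log2 with 1 added to promoter fragments and 0.1 to fragments per kb. Doublets were kept. The 8 genes and all lists were chosen with earlier results of these data known. The text names the 8 genes, the 3 strongest distal sites of each window, the highest and lowest 2 members of each pathway list, and the nearest gene by likeness, apart from results not reported here; other markers and bins were chosen after their values were seen. Counting was tested on simulated data. Scripts used Python 3.11.15, numpy 2.4.6, scipy 1.17.1, pandas 2.3.3 and, for figures, matplotlib 3.10.9. Alternatives covered the cells, fragment position and length, depth, bins, start, promoter window and distal rule.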

Additional observations from a re-analysis of the deposited data

How the results depend on the processing

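All 8 promoters were open under each of the 14 alternatives tried for that count. The 17 distal open sites became 6 with the top 0.5% of bins and 36 with the top 2%, as a stricter or looser threshold must give, and 10 when the windows reached 10 kb instead of 30 kb beyond the gene. With bins of 1000 bp there were 8, and the cause was not tested. Under the other 12 alternatives the number stayed between 13 and 24, among them 1 chosen after seeing the data, distances from the starts of protein-coding transcripts only (20 sites). The promoter shares of cells depended on depth and window, and 54 of 80 values left the interval of the value reported. All 8 fell with each cell thinned to 3000 fragments (2.57% to 17.5%), with only fragments shorter than a nucleosome core (3.86% to 35.0%), with all called cells and with a promoter window of 250 bp either side. *Tnfaip3* had the highest share under 8 of 10 alternatives and *Nfkbiz* the lowest under 9. With 1000 bp either side of the start *Relb* reached 80.4%, and *Nfkbia* rose from 33.5% to 55.5%, above *Tnfaip3* at 52.6%. With the annotated start of most fragments *Relb* was highest (76.4%) and *Nfkb1* lowest (22.7%), since *Nfkbiz* then had 33.4%. The 1 library gives no measure of spread between animals, and sites near the threshold of 106 fragments, such as those of 110 and 114 in *Nfkb1*, are limited by depth. No paired analysis was possible because the result comes from no test.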
